A study of Mus musculus with 48 samples.

Results

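The expression of 5 genes of the ST2 and amphiregulin axis of tissue Tregs, Il1rl1, Areg, Gata3, Klrg1 and Nfil3, was followed in splenic T cells of mice given IL-2. The genes were chosen by symbol, and they are 5 of the 53345 genes in the deposited matrix. All 5 were listed and all 5 passed the filter on low counts in every fit. RNA-seq libraries were made from spleens of female C57BL/6 mice, 8 to 12 weeks old. Each mouse received 2 intraperitoneal doses of 500 µg of an isotype control antibody or of an antibody against MHC class II (MHC II block), and then, once under the skin, PBS or 25 µg of a human IL-2 fused to an Fc domain. The IL-2 was wild type (WT IL-2), the mutein H16R, which carries a substitution at a single residue, or the 3x mutein, which combines several substitutions. Both muteins are attenuated activators of STAT5. Spleens were taken on day 4, Tregs were the fraction bound in a bead selection for CD25, and conventional CD4 T cells (Tcons) were the CD25-negative flow-through of the same selection. The Treg libraries form 8 groups of 4 libraries (32 in all) and Tcon libraries were made from 2 of the mice of each group (16 in all). Each mouse was processed on its own. The labels give the same mouse code to 2 isotype WT IL-2 Treg libraries, called replicates 3a and 3b here, so that this group may hold 3 mice. Both were counted, n is the number of libraries, and each was left out in turn. These groups inform on bulk cells enriched on CD25, a subunit of the receptor for the injected cytokine, and not on Tregs sorted by Foxp3. Stained aliquots were described in the study's methods as mostly Foxp3-positive for most samples, without a value for each library.

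Tregs that live in non-lymphoid tissue carry ST2, the receptor for the alarmin IL-33, and release amphiregulin, a growth factor of the EGF family that acts on epithelium and other cells in repair. Their program depends on transcription factors shared with type 2 immunity, among them GATA3, and the lectin-like receptor KLRG1 marks Tregs with an effector phenotype. NFIL3 is a basic leucine zipper factor that is induced by cytokines in lymphocytes and competes with clock-controlled factors for D-box sites. IL-2 signals through STAT5, and peptide on MHC class II engages the T cell receptor of a Treg, and the blocking antibody was given to reduce that contact. How far it did so was not measured in these libraries.

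Il1rl1 (ENSMUSG00000026069.15, chromosome 1, 40429570 to 40465415, plus strand of GRCm38) has 5 annotated transcripts and up to 11 exons, and it encodes both the membrane and the soluble form of ST2. Areg (ENSMUSG00000029378.5, chromosome 5, 91139599 to 91148432, plus strand) has 1 transcript with 6 exons. Gata3 (ENSMUSG00000015619.10, chromosome 2, 9857078 to 9890034, minus strand) has 6 transcripts, of which 2 are coding. It overlaps the annotated genes Gm13256, 4930412O13Rik and 9230102O04Rik, and its counts were not whole in 18 of the 48 libraries, at a tolerance of 1e-06. Whether its reads were shared with these genes was not tested, and its values are uncertain to that extent. Klrg1 (ENSMUSG00000030114.8, chromosome 6, 122270596 to 122282882, minus strand) has 1 transcript with 5 exons, and Nfil3 (ENSMUSG00000056749.7, chromosome 13, 52967209 to 52981073, minus strand) has 1 transcript with 2 exons.

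RefSeq promoters were at hand for 4 of the 5 genes (GRCm38.p6), and those of Il1rl1, Areg and Nfil3 are shown because these genes had the most different responses to the IL-2 molecules. Each line gives the 250 bases before an annotated start, 5′ to 3′ on the strand of the gene, and capitals mark a match to a searched motif. Il1rl1 has 2 starts in the table, at chr1:40429320-40429569 and chr1:40439379-40439628 on the plus strand. The Areg window is chr5:91139349-91139598 on the plus strand and the Nfil3 window is chr13:52981040-52981289 on the minus strand.
Il1rl1 distal start: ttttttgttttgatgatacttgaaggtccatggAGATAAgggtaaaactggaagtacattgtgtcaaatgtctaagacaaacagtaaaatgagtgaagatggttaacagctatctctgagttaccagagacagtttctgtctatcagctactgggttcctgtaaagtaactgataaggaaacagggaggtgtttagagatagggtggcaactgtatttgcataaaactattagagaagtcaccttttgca
Il1rl1 proximal start: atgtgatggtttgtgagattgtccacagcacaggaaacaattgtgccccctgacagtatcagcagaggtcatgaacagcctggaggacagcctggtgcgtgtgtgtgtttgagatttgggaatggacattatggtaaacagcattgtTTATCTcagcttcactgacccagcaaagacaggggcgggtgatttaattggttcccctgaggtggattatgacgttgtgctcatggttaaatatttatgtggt
Areg: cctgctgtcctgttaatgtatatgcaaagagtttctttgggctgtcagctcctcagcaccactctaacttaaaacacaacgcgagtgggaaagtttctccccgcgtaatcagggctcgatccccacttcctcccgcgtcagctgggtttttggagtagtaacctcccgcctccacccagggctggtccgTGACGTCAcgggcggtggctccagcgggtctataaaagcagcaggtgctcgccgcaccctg
Nfil3: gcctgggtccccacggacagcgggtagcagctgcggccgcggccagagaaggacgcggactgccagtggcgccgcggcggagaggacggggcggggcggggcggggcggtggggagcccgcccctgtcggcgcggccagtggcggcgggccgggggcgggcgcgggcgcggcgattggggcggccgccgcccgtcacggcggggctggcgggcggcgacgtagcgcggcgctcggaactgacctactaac
Both strands were searched for the STAT-binding GAS motif TTCNNNGAA, the AP-1 motif TGANTCA, the cyclic AMP response element TGACGTCA, the D-box motif TTANGTAA bound by NFIL3 and the GATA motif AGATAA. Areg held the cyclic AMP response element at 61 to 54 bases before its start, a motif found in 1.55% of 32851 promoters of the same length. The Il1rl1 windows each held a GATA match, at 217 to 212 bases before the distal start and, on the other strand, at 103 to 98 bases before the proximal one. This motif was found in 9.99% of promoters. The windows of Nfil3 and Gata3 held none of the 5 motifs, and GAS, AP-1 and D-box motifs, found in 7.02%, 6.75% and 2.06% of all promoters, were in none of the windows searched. The matches did not overlap each other. GC content was 37.6% and 46.4% for the Il1rl1 windows, 57.2% for Areg and 81.6% for Nfil3.

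Total expected counts were 18.28 to 51.24 M per Treg library (median 40.7 M) and 31.31 to 51.95 M per Tcon library (median 38.24 M). Expression is given as CPM, read counts relative to library size, scaled with TMM factors over the 48 libraries, and comparisons between genes use FPKM, which also divides by transcript length. The defining Treg gene Foxp3 was at 687 to 1249 CPM in Tregs and at 46.77 to 182.6 CPM in Tcons, and the largest Tcon value was that of isotype WT IL-2 replicate 2. Summed markers of B cells were 31.23 to 672.8 CPM in Tregs, with the highest values in isotype PBS replicate 1 (672.8) and in MHC II block WT IL-2 replicate 1 (619.7), which also had the highest myeloid marker sum of the Tregs (490.4 CPM). Results that turn on these libraries are given with and without them. In bulk libraries, fewer cells of a type and less RNA per cell cannot be told apart.

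IL-2 raised most of these genes in Tregs. With edgeR (quasi-likelihood test, Benjamini-Hochberg adjusted p below 0.1 over 12392 genes), 5 of 5 genes rose against PBS with WT IL-2 in the isotype arm, 5 with H16R and 4 with 3x, where Nfil3 was the exception. Over all tested genes, 26%, 31.4% and 31.3% rose in the same comparisons. With MHC II block, 5 of 5 rose with H16R, 4 with 3x and 3 with WT IL-2, against 32.7%, 34.7% and 21.9% of all genes. The molecules of an arm share their PBS libraries, so the values of a gene against PBS are set side by side here and not tested against each other in this form. The plot of levels shows how the genes differed: Il1rl1, Klrg1 and Gata3 had their highest means with a mutein, and Areg and Nfil3 had theirs with WT IL-2 in the isotype arm.

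**Figure D1:**
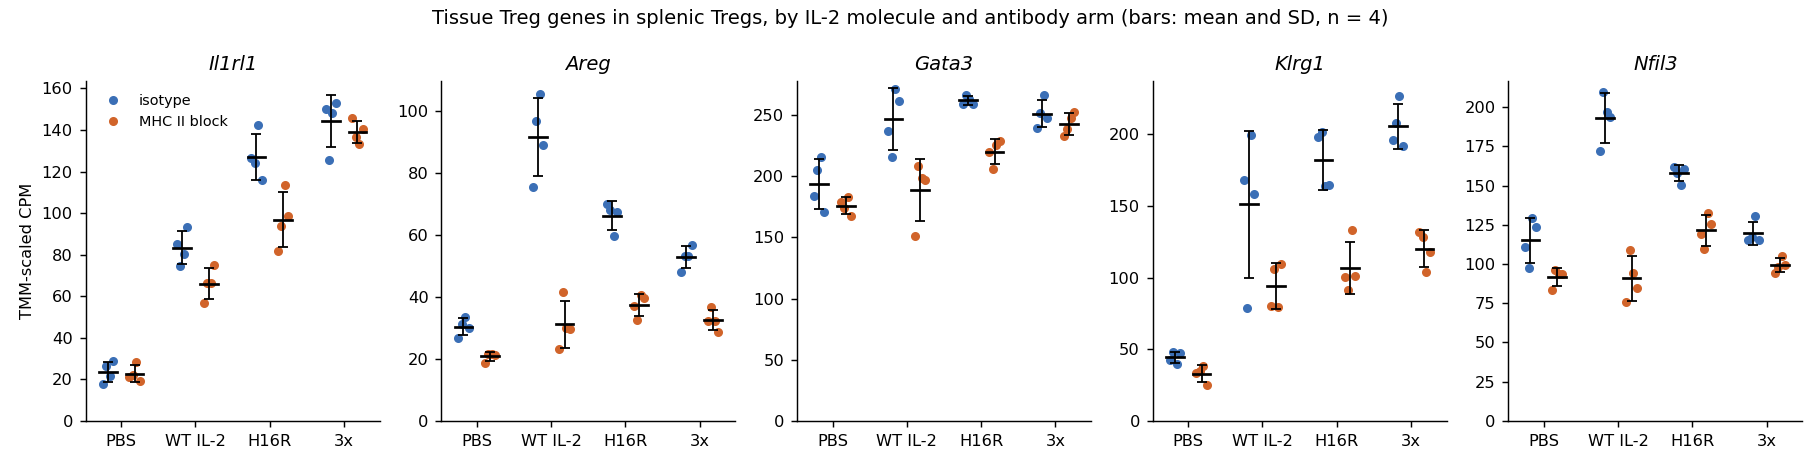
TMM-scaled CPM (linear axes from 0) of the 5 genes in each of the 32 Treg libraries, by IL-2 molecule and antibody arm, with horizontal bars for the mean and vertical bars for the SD of 4 libraries. Il1rl1 climbs from 23.63 CPM with PBS to 144.2 with 3x in the isotype arm, while Areg peaks at 91.54 with WT IL-2 and lies at 31.12 with WT IL-2 under MHC II block.

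Il1rl1, the gene of the IL-33 receptor ST2, was the gene of the 5 with the largest change against PBS. Its group means ran WT IL-2, H16R and 3x from low to high in both arms. In the isotype arm it was at 17.7, 26.31, 21.64 and 28.87 CPM with PBS and at 85.35, 74.37, 80.32 and 93.36 CPM with WT IL-2. H16R libraries had 126.3, 124.1, 142.4 and 115.9 CPM and 3x libraries had 150.1, 125.8, 148.1 and 152.8 CPM. Every IL-2 library was above every PBS library, H16R was above WT IL-2 in every library, and only H16R and 3x overlapped. With MHC II block, PBS libraries were at 20.94, 22.02, 28.59 and 19.07 CPM and WT IL-2 libraries at 56.58, 66.57, 66.19 and 74.86 CPM. H16R libraries in that arm were at 81.77, 93.75, 113.7 and 98.4 CPM and 3x libraries at 145.6, 136.8, 133.3 and 140.3 CPM. Under MHC II block the 4 groups did not overlap at all. Against PBS, Il1rl1 rose 3.57-fold with WT IL-2 in the isotype arm (log2 fold change 1.84 ± 0.12 (SE), edgeR adjusted p = 4.3e-12), 5.47-fold with H16R and 6.23-fold with 3x. Under block the folds were 2.94, 4.26 and 6.07, and all passed the threshold. Ordered by mean, the 8 groups ran from isotype 3x (144.2 ± 12.4 CPM, SD, n = 4), MHC II block 3x (139 ± 5.25) and isotype H16R (127.2 ± 11.1) to MHC II block H16R (96.9 ± 13.2), isotype WT IL-2 (83.35 ± 8.04), MHC II block WT IL-2 (66.05 ± 7.47) and the PBS groups (23.63 ± 4.96 isotype, 22.66 ± 4.14 block). Neighbours in this order had overlapping libraries except isotype H16R against MHC II block H16R and MHC II block WT IL-2 against isotype PBS.

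Other cells that carry ST2 could lend Il1rl1 reads to a bulk fraction. Of the 8 mast cell and basophil markers, the sum in Tregs was 1.51 to 2.84 CPM in isotype PBS, 1.04 to 4.44 in isotype IL-2 groups, 2.61 to 5.83 in block PBS and 2.13 to 10.28 in block IL-2 groups, with Fcer1a, Ms4a2 and Tpsb2 under 1 CPM in all 32 libraries. Cpa3 was over 1 CPM in 23 of them (up to 5.42), Mcpt8 in 8 (up to 3.25), Cma1 in 7, Mcpt4 in 6 and Prss34 in 1, and the part of such cells in the Il1rl1 values was not tested. Of the 6 markers of group 2 innate lymphoid cells, Il5 and Calca were under 1 CPM in every Treg library. Il17rb (13.27 to 29.04 CPM) and Arg1 (1.31 to 5.82 CPM) were over 1 CPM in all 32, and Il13 in 24 (up to 25.72). The sum of that list was 94.56 to 225.5 CPM in isotype PBS, 128 to 198.3 in isotype IL-2 groups, 114.9 to 129.5 in block PBS and 115.1 to 186 in block IL-2 groups, most of it Rora, which T cells express too. The part of these cells in the Il1rl1 values was not tested either.

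Genes of the IL-33 pathway downstream of ST2 changed in both directions. Il33 itself was below 0.1 CPM on average in each Treg group, and was not tested. Of the 13 tested genes of the 14 listed, 5 rose and 3 fell with WT IL-2 in the isotype arm, 6 rose and 1 fell with H16R and 6 rose and 0 fell with 3x, with median log2 fold changes of 0.04, 0.02 and 0.03 against −0.01 for all genes. Of all genes, 26%, 31.4% and 31.3% rose and 26.2%, 32.8% and 32.3% fell in these comparisons. In the block arm the counts were 4 and 1, 6 and 4, and 5 and 4, where 21.9%, 32.7% and 34.7% of all genes rose and 13.7%, 33.8% and 38.3% fell. Il1rap, the co-receptor that pairs with ST2, was at 13.96 to 16.82 CPM in the 8 groups and its only call against PBS was a fall of 0.20 on the log2 scale with H16R under block (adjusted p = 0.0243). Myd88, the adaptor of the receptor, rose with each molecule in the isotype arm and by 0.93 ± 0.07 (log2, SE) with 3x under block, from 54.12 to 104.2 CPM. Irak4, the kinase recruited by MyD88, rose in all 6 comparisons, by log2 fold changes from 0.18 to 0.46. Irak3, an inhibitor of the same complex, fell with WT IL-2 (−0.44 ± 0.10) and H16R (−0.22 ± 0.10) in the isotype arm, and Traf6, the ubiquitin ligase below it, fell with WT IL-2 there (−0.13 ± 0.06).

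**Figure D2:**
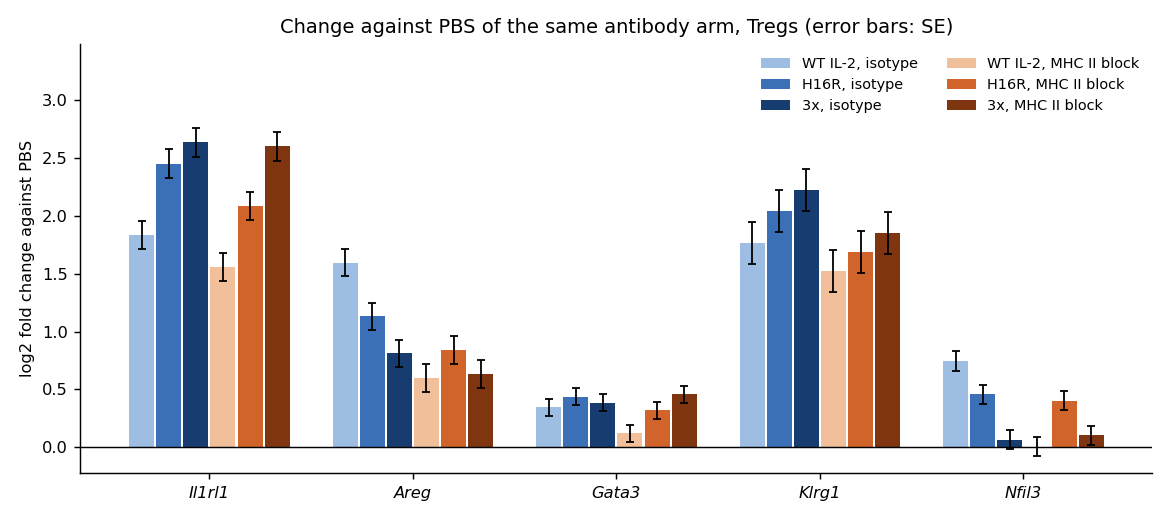
Log2 fold change against PBS of the same antibody arm for each gene in Tregs, with bars for each IL-2 molecule and arm from 0 and error bars for the SE. Il1rl1 and Klrg1 rise by 1.53 to 2.64 in all 6 comparisons, Gata3 by at most 0.46, and the Nfil3 bars of 3x in both arms and of WT IL-2 under block lie between 0.00 and 0.10.

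Areg, the gene of amphiregulin, ran in the opposite order of molecules in the isotype arm, and was the gene of the 5 with the largest fall under MHC II block with PBS, WT IL-2 and H16R. Isotype libraries were at 26.86, 31.08, 33.54 and 29.85 CPM with PBS and at 75.44, 96.5, 105.2 and 89.03 CPM with WT IL-2. With H16R they were at 69.91, 67.89, 59.52 and 67.32 CPM and with 3x at 47.94, 53.23, 53.18 and 56.8 CPM. No 2 of these 4 groups overlapped. Under MHC II block, PBS libraries were at 18.79, 21.7, 21.6 and 21.13 CPM and WT IL-2 libraries at 23.22, 41.58, 29.91 and 29.75 CPM. H16R libraries were at 36.91, 32.36, 40.47 and 39.48 CPM and 3x libraries at 32.24, 36.8, 32.24 and 28.8 CPM. The 3 IL-2 groups overlapped each other in this arm, and each lay above PBS. Against PBS the rise in the isotype arm was 3.02-fold with WT IL-2 (log2 1.59 ± 0.12, adjusted p = 1.85e-11, edgeR), 2.19-fold with H16R and 1.76-fold with 3x. Under block it was 1.51-fold, 1.79-fold and 1.55-fold, each past the threshold. In order of the mean, isotype WT IL-2 (91.54 ± 12.6 CPM), isotype H16R (66.16 ± 4.56) and isotype 3x (52.79 ± 3.65) each stood apart from the next group, and then came the overlapping MHC II block H16R, 3x and WT IL-2 groups (37.3 ± 3.62, 32.52 ± 3.28 and 31.12 ± 7.64) with isotype PBS (30.33 ± 2.78), and MHC II block PBS last (20.8 ± 1.37).

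The other members of the EGF family were scarce in Tregs. Ereg, Epgn, Egfr and Erbb4 did not pass the filter, and Egfr, the receptor of amphiregulin, was at 0.127 to 0.31 CPM in the 8 groups. Of the 8 tested genes of the 12 listed, 4 rose and 1 fell with each molecule in the isotype arm, with median log2 fold changes of 0.14, 0.23 and 0.20, where 26% to 31.4% of all genes rose and 26.2% to 32.8% fell. Under block 6 rose with each molecule, and 0, 1 and 2 fell, where 21.9% to 34.7% of all genes rose and 13.7% to 38.3% fell. Erbb3, a receptor of the family for neuregulins, rose from 13.72 ± 0.77 CPM with PBS to 39.43 ± 2.62 with H16R, 32.59 ± 2.36 with WT IL-2 and 31.93 ± 3.04 with 3x. Tgfa, another ligand of the EGF receptor, rose with each molecule in both arms but stayed below 1 CPM on average in every group. Egf fell with each molecule in the isotype arm, from 2.61 to between 1.24 and 1.35 CPM. Under block Erbb3 was lower than with isotype in WT IL-2 mice (−0.37 ± 0.07, adjusted p = 0.000518), as Areg was, and higher in PBS and 3x mice, by 0.27 and 0.30 on the log2 scale.

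Gata3, the transcription factor of type 2 T cells that also stabilizes Tregs in tissue, changed by at most 1.37-fold, from a high level. Isotype libraries were at 183.7, 204.7, 216.1 and 170.7 CPM with PBS, 237, 215.8, 271.7 and 261.9 with WT IL-2, 259.3, 266.1, 263.3 and 259.2 with H16R, and 239.7, 251.3, 266 and 247.6 with 3x. The H16R and 3x libraries lay above all PBS libraries, and WT IL-2 replicate 2 (215.8 CPM) overlapped them by less than 1 CPM. Block libraries were at 178.8, 173.8, 183.3 and 167.5 CPM with PBS, 151.4, 208.3, 198.3 and 196.7 with WT IL-2, 220.2, 205.7, 225.4 and 229 with H16R, and 233, 238.3, 247.7 and 252.7 with 3x. With block, WT IL-2 replicate 1 was below every PBS library and the other 3 above, and both mutein groups were above PBS throughout. The log2 fold changes against PBS were 0.35 ± 0.07, 0.44 ± 0.07 and 0.38 ± 0.07 with WT IL-2, H16R and 3x in the isotype arm, all past the threshold. Under block they were 0.12 ± 0.07 (adjusted p = 0.232), 0.32 ± 0.07 and 0.46 ± 0.07. Without MHC II block WT IL-2 replicate 1 the first of these was 0.20 with an adjusted p of 0.0244 from the same test. The 3 isotype IL-2 groups and MHC II block 3x (262 ± 3.35 to 242.9 ± 8.91 CPM) stood at the top of the order, where each overlapped its neighbour, while isotype H16R and MHC II block 3x did not overlap. MHC II block H16R (220.1 ± 10.2) lay below the isotype H16R, isotype 3x and MHC II block 3x libraries, but overlapped isotype WT IL-2 through its replicate 2 and also isotype PBS. It was followed by overlapping MHC II block WT IL-2 and PBS. In FPKM, Gata3 had the highest mean of the 5 genes in isotype PBS Tregs (59.88), ahead of Nfil3 (56.44), Klrg1 (31.23), Areg (24.8) and Il1rl1 (6.50), and Klrg1 had the highest with 3x (140).

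Genes of the type 2 program around Gata3 were counted in the same way. Of 11 tested, 7 rose and 1 fell with WT IL-2 in the isotype arm, 9 rose and 2 fell with H16R and 6 rose and 1 fell with 3x, with medians of 0.92, 1.13 and 0.76 on the log2 scale, against 26% to 31.4% of all genes that rose and 26.2% to 32.8% that fell. Under block, 7, 8 and 8 rose and 2, 1 and 2 fell, against 21.9% to 34.7% and 13.7% to 38.3% of all genes. Il13, a type 2 cytokine, rose with each molecule in both arms and was highest in MHC II block 3x Tregs, at 19.75 ± 4.31 CPM against 3.55 ± 1.21 with 3x and isotype (log2 fold change 2.45 ± 0.25, adjusted p = 1.26e-08). Il5, a cytokine of the same locus, rose with each molecule but stayed below 1 CPM in every library. Ptgdr2, a prostaglandin receptor of type 2 cells, fell with H16R in the isotype arm (−1.06 ± 0.31) from 0.53 CPM, and Zfpm1, a cofactor of GATA proteins, fell with each molecule there, from 101.2 ± 12.3 CPM to 72.02 ± 2.57 with 3x.

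Klrg1 encodes an inhibitory receptor for cadherins. Its rise came next to that of Il1rl1, with a wider spread. Isotype libraries were at 42.73, 48, 39.62 and 47.34 CPM with PBS and at 168.3, 78.9, 199.5 and 158.3 CPM with WT IL-2. H16R libraries were at 198, 201.8, 164.1 and 164.4 CPM, and 3x libraries at 195.7, 207.9, 227 and 192.1 CPM. WT IL-2 replicate 2 was the lowest of the 12 IL-2 libraries of this arm, and the WT IL-2 group overlapped both muteins. With block, PBS libraries were at 33.62, 34.93, 38.37 and 24.98 CPM and WT IL-2 libraries at 80.37, 106, 79.64 and 109.3 CPM. H16R libraries were at 100.3, 91.36, 133.2 and 101.4 CPM, and 3x libraries at 131.6, 128.2, 103.6 and 117.7 CPM. The 3 IL-2 groups overlapped and all lay above PBS. The log2 fold changes against PBS were 1.77 ± 0.18, 2.04 ± 0.18 and 2.22 ± 0.18 in the isotype arm and 1.53 ± 0.18, 1.69 ± 0.18 and 1.85 ± 0.18 under block, with adjusted p of at most 6.62e-07 in edgeR. Neighbours in the order of the 8 means overlapped from isotype 3x (205.7 ± 15.7 CPM) down to MHC II block WT IL-2 (93.83 ± 16), and isotype PBS (44.42 ± 3.97) and MHC II block PBS (32.98 ± 5.69) each stood apart.

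NK cells carry KLRG1 as well, and their markers moved with the antibody arm. The sum of 7 NK cell markers was 34.65 to 48.44 CPM in isotype PBS, 16.62 to 33.49 in isotype IL-2 groups, 28.55 to 38.27 in block PBS and 76.81 to 223.5 in block IL-2 groups, where Gzma reached 193.4 CPM. Ncr1 (1.62 to 14.49 CPM), Klrb1c (4.38 to 22.8 CPM), Eomes (2.97 to 15.12 CPM) and Gzma were over 1 CPM in all 32 Treg libraries. Klra7 was over 1 CPM in 13 of them (up to 7.45), and Klra8 and Klra4 in 1 library each. The part of NK cells in the Klrg1 values was not tested. Among the ligands and effectors of KLRG1, Cdh4 was not tested. Of the other 4, 1 rose with each molecule in the isotype arm and 0, 2 and 2 fell. Under block 1 rose with each molecule and 1, 1 and 0 fell. Of all genes, 26% to 31.4% rose and 26.2% to 32.8% fell with isotype, and 21.9% to 34.7% rose and 13.7% to 38.3% fell under block. The gene that rose throughout was Inpp5d, a phosphatase that KLRG1 can recruit, from 231.6 ± 9.66 to at most 306.3 ± 12 CPM in the isotype arm. Ptpn11, another phosphatase of this kind, fell with H16R (−0.25 ± 0.05) and 3x (−0.31 ± 0.05). The cadherin ligands were scarce, with Cdh1 at 0.244 to 0.928 CPM over the groups and not called against PBS, and with Cdh2 falling with 3x in the isotype arm (−1.35 ± 0.41) from 0.76 CPM.

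**Figure D3:**
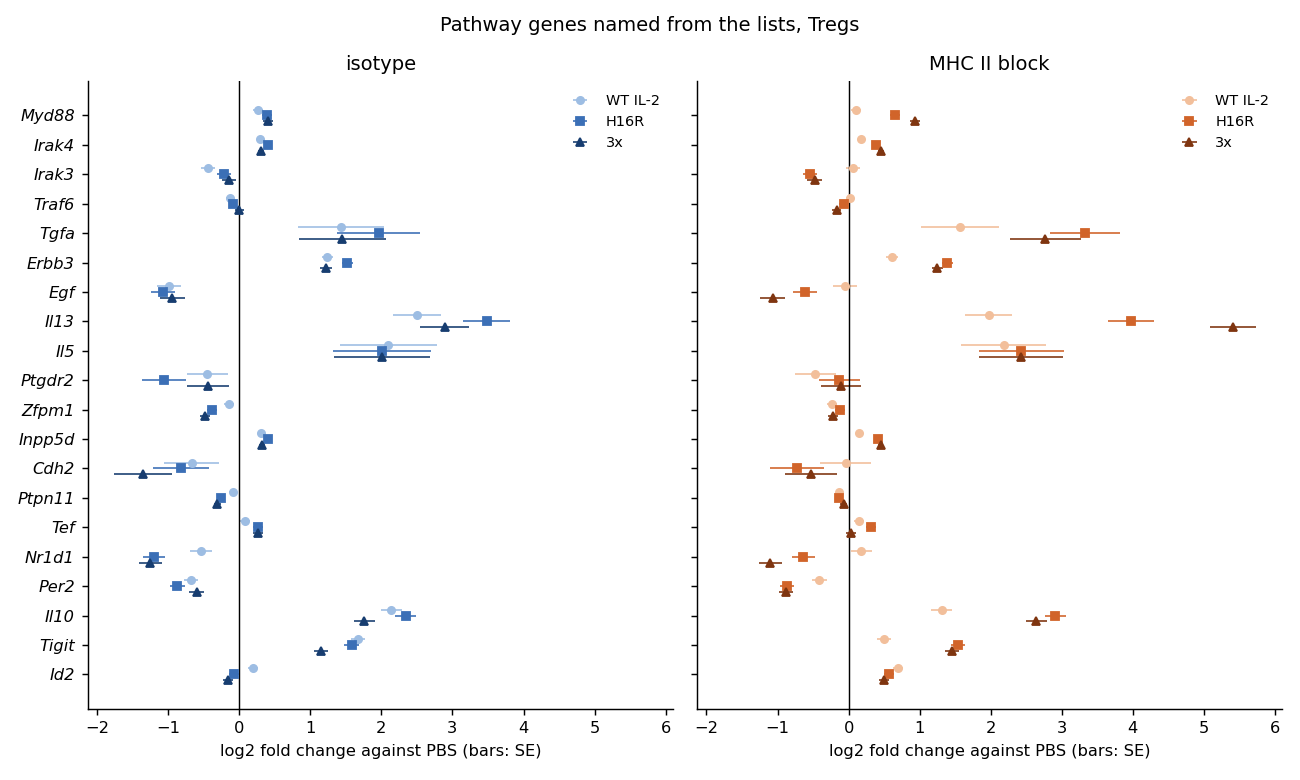
Log2 fold change against PBS of the same antibody arm, with bars for the SE, of the pathway genes named by rule, in isotype (left) and MHC II block (right) Tregs. Il13 reaches 5.41 with 3x under block, Tgfa, Erbb3, Il5, Il10 and Tigit lie right of 0 with all 3 molecules in both panels, and Nr1d1 and Per2 lie left of 0 except Nr1d1 with WT IL-2 under block.

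Nfil3 shared with Areg the order of the molecules in the isotype arm and a fall under block in every treatment, but it rose in 3 of the 6 comparisons with PBS where Areg rose in 6. Isotype libraries were at 110.7, 97.28, 129.2 and 123.5 CPM with PBS and at 172.1, 210, 197.1 and 193.6 CPM with WT IL-2. With H16R they were at 161.6, 158.3, 150.4 and 160.8 CPM and with 3x at 115.2, 117.3, 130.4 and 115.1 CPM. WT IL-2 stood above H16R and H16R above PBS, without overlap, and 3x overlapped PBS. With block, PBS libraries were at 83.36, 96.5, 93.49 and 93.73 CPM and WT IL-2 libraries at 75.83, 109, 94.06 and 84.43 CPM. H16R libraries were at 119.2, 109.4, 132.7 and 125.5 CPM and 3x libraries at 94.01, 98.42, 105.2 and 99.37 CPM. Here H16R alone stood clear of the PBS libraries. In the isotype arm Nfil3 rose 1.68-fold with WT IL-2 (log2 0.75 ± 0.08, adjusted p = 4.39e-08, edgeR) and 1.37-fold with H16R, and its difference with 3x was 0.06 ± 0.08 (95% interval −0.11 to 0.24, adjusted p = 0.526). Under block it rose 1.32-fold with H16R, while the difference with WT IL-2 was 0.00 ± 0.08 (−0.17 to 0.18, adjusted p = 0.981) and that with 3x was 0.10 ± 0.08 (−0.07 to 0.27, adjusted p = 0.279). The last passed with all gene classes (0.17, adjusted p = 0.0836) and with only the groups compared (0.11, adjusted p = 0.0765). Isotype WT IL-2 (193.2 ± 15.7 CPM) and isotype H16R (157.8 ± 5.11) stood apart at the top of the order, and the other 6 groups, from MHC II block H16R (121.7 ± 9.88) to MHC II block WT IL-2 (90.83 ± 14.2), overlapped from neighbour to neighbour.

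MHC II block lowered Areg with PBS and with every IL-2 molecule. Of the 5 genes, 2 fell under block in PBS mice (Areg and Nfil3), 5 each under WT IL-2 or H16R and 3 when 3x was given (Areg, Klrg1 and Nfil3), and 0 rose. Over all tested genes 8.13%, 15.3%, 15.2% and 26.9% fell in these comparisons, and 6%, 18.2%, 15.4% and 27.2% rose. The Areg difference was −0.54 ± 0.12 (log2, SE) in PBS mice (adjusted p = 0.00486, edgeR), −1.54 ± 0.11 with WT IL-2, or 2.9-fold lower, −0.83 ± 0.11 with H16R and −0.72 ± 0.11 with 3x. Block and isotype libraries of Areg overlapped in none of the 4 treatments. Nfil3 was lower by 0.33 ± 0.08, 1.07 ± 0.08, 0.38 ± 0.08 and 0.29 ± 0.08 on the log2 scale in the same order. Klrg1 was lower with WT IL-2 (−0.67 ± 0.17), H16R (−0.78 ± 0.17) and 3x (−0.80 ± 0.17), while in PBS mice its difference of −0.43 ± 0.19 had an adjusted p of 0.151, or 0.0444 without isotype WT IL-2 replicate 2. Il1rl1 was lower with H16R (−0.40 ± 0.11, adjusted p = 0.0131) and with WT IL-2 (−0.32 ± 0.11, adjusted p = 0.0389). The latter call was lost without MHC II block WT IL-2 replicate 1 (−0.26, adjusted p = 0.129) or without isotype WT IL-2 replicate 3b (−0.26, adjusted p = 0.124). With PBS and 3x the Il1rl1 differences were −0.04 (95% interval −0.30 to 0.23) and −0.08 (−0.31 to 0.16). Gata3 was lower with WT IL-2 (−0.37 ± 0.07) and H16R (−0.26 ± 0.07), with intervals of −0.30 to 0.01 in PBS mice and −0.22 to 0.08 with 3x. Markers of other cells moved with the arm in the IL-2 groups, from isotype sums of 3.69 to 10.56 (dendritic), 13.57 to 23.96 (myeloid) and 16.62 to 33.49 CPM (NK) to block sums of 18.13 to 81, 24.46 to 490.4 and 76.81 to 223.5 CPM. In PBS mice these sums overlapped between the arms, and their part in the differences was not tested.

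**Figure D4:**
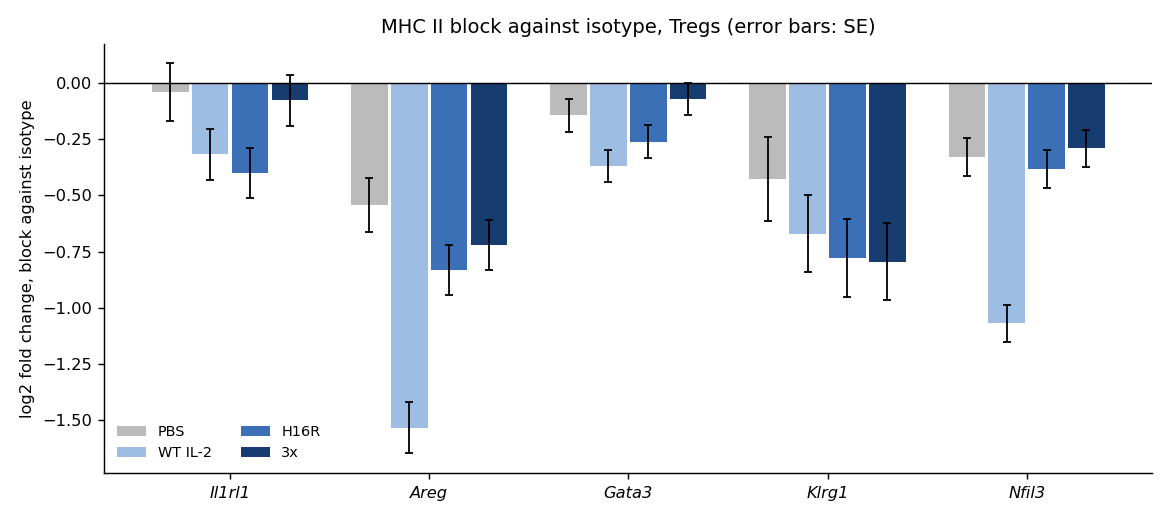
Log2 fold change of MHC II block against isotype in Tregs for each gene and treatment, with bars from 0 and error bars for the SE. All 20 bars point down, and the Areg and Nfil3 bars of WT IL-2, at −1.54 and −1.07, are the longest of their genes.

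Whether the block changed the response to a molecule was tested as an interaction. For WT IL-2, the response against PBS was smaller under block for Areg (log2 difference −0.995 ± 0.165, adjusted p = 0.000222, edgeR) and for Nfil3 (−0.743 ± 0.118, adjusted p = 0.00014), 2 of 5 genes against 19.7% of all genes. For H16R and 3x, 0 of 5 genes passed in edgeR, against 19.1% and 39% of all genes, with 1 and 0 at an unadjusted p under 0.05, and DESeq2 and limma also called 0. Fitted with only the groups compared, Areg passed for H16R (−0.29, adjusted p = 0.092) and Klrg1 for 3x (−0.37, adjusted p = 0.0757). The gene with the unadjusted p under 0.05 was Il1rl1 with H16R (−0.362 ± 0.171, adjusted p = 0.163), and it passed without isotype PBS replicate 4 (−0.47, adjusted p = 0.0536). The intervals for the H16R and 3x responses were −0.63 to 0.05 and −0.52 to 0.16 for Areg and −0.30 to 0.19 and −0.21 to 0.28 for Nfil3. The effect of block also differed between molecules. It was weaker with H16R than with WT IL-2 for Areg (difference 0.705 ± 0.159, adjusted p = 0.00484) and Nfil3 (0.688 ± 0.117, adjusted p = 0.000322), 2 of 5 genes against 23.5% of all. With 3x it was weaker than with WT IL-2 for Areg (0.816 ± 0.159), Gata3 (0.298 ± 0.104, adjusted p = 0.026) and Nfil3 (0.781 ± 0.117), 3 of 5 against 43.8%. For Il1rl1 and Klrg1 these differences did not pass, with intervals of −0.41 to 0.25 and −0.61 to 0.39 for H16R and of −0.09 to 0.57 and −0.63 to 0.37 for 3x. The Gata3 interaction for WT IL-2 against PBS was −0.225 ± 0.104 (adjusted p = 0.16), and it passed in 5 of the 32 fits without 1 library, with an adjusted p of 0.0353 without isotype WT IL-2 replicate 2. That library also decided Klrg1, whose interaction was −0.243 ± 0.253 with it and −0.49 (adjusted p = 0.0781) without it.

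The IL-2 molecules, given at the same dose and read on the same day, were compared with each other in 6 pairs. In the isotype arm, H16R differed from WT IL-2 in 3 of 5 genes, 3x from WT IL-2 in 4 and 3x from H16R in 2, against 18.6%, 34.7% and 11.5% of all genes. Il1rl1 was higher with H16R than with WT IL-2 by 0.61 ± 0.11 (log2, SE; adjusted p = 0.000894, edgeR) and with 3x by 0.80 ± 0.11 (adjusted p = 8.85e-06). Areg was lower with H16R by 0.46 ± 0.11 and with 3x by 0.78 ± 0.11, and Nfil3 was lower by 0.29 ± 0.08 and 0.68 ± 0.08. So Il1rl1 and the pair of Areg and Nfil3 differed in opposite directions between the same groups of mice. Between 3x and H16R, Nfil3 was lower by 0.39 ± 0.08 with 3x and Areg by 0.32 ± 0.11 (adjusted p = 0.078), a call lost in 7 of the 32 fits without 1 library (adjusted p up to 0.245 without isotype 3x replicate 1, and at least 0.105 without any of the other isotype 3x libraries or isotype H16R replicates 1, 2 or 4). Klrg1 was higher with 3x than with WT IL-2 by 0.46 ± 0.17 (adjusted p = 0.047), and by 0.25 (adjusted p = 0.181) without isotype WT IL-2 replicate 2 or 0.40 (adjusted p = 0.115) without isotype 3x replicate 3. Gata3 was not called in any pair of this arm, with intervals of −0.06 to 0.24 for H16R and −0.11 to 0.19 for 3x against WT IL-2. Nor was Il1rl1 called between 3x and H16R, at 0.19 ± 0.11 (interval −0.04 to 0.42, adjusted p = 0.355, edgeR).

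Under MHC II block the pairs took another form for Areg and Nfil3. H16R differed from WT IL-2 in 4 of 5 genes, 3x from WT IL-2 in 3 and 3x from H16R in 2, against 57.5%, 68.7% and 25.2% of all genes. The Il1rl1 means kept their order, and here each pair passed the threshold in edgeR. The log2 differences were 0.53 ± 0.11 (H16R against WT IL-2), 1.04 ± 0.11 (3x against WT IL-2) and 0.51 ± 0.11 (3x against H16R). Nfil3 was higher with H16R than with WT IL-2 (0.40 ± 0.08) and lower with 3x than with H16R (−0.30 ± 0.08). Areg was higher with H16R than with WT IL-2 by 0.24 ± 0.11 (adjusted p = 0.0822), and by 0.14 (adjusted p = 0.319) without MHC II block WT IL-2 replicate 1. Without replicate 1, 3 or 4 of MHC II block H16R, or replicate 3 or 4 of MHC II block WT IL-2, its adjusted p was 0.112 to 0.197. The difference was 0.26 (adjusted p = 0.181) with only the groups compared, and 0.23 (adjusted p = 0.114) after thinning to the smallest library. Gata3 was higher with H16R (0.20 ± 0.07, or 0.12 with adjusted p = 0.148 without MHC II block WT IL-2 replicate 1) and with 3x (0.34 ± 0.07) than with WT IL-2. Klrg1 was higher with 3x than with WT IL-2 by 0.33 ± 0.17 (adjusted p = 0.0967), a value near the threshold that was lost in 15 of the 32 fits without 1 library. It was 0.25 (adjusted p = 0.241) without MHC II block WT IL-2 replicate 3, and 0.27 (adjusted p = 0.21) without replicate 1. With the replicate number of the labels as a block it was 0.33 (adjusted p = 0.113), and after thinning 0.31 (adjusted p = 0.125). Areg and Nfil3 did not differ between 3x and WT IL-2 past the threshold, with intervals of −0.20 to 0.27 and −0.07 to 0.27. Nfil3 passed with all gene classes (0.18, adjusted p = 0.083). Without MHC II block WT IL-2 replicate 2 both passed, at 0.20 (adjusted p = 0.0909) and 0.19 (adjusted p = 0.037).

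Tregs had more of each of the 5 transcripts than Tcons of the same mouse. In 16 of 16 mice the Treg value was higher for each gene, with folds of 2.56 to 9.52 (median 4.76) for Il1rl1, 3.86 to 12.1 (median 9.04) for Areg, 1.56 to 2.49 (median 2.13) for Gata3, 3.28 to 13.8 (median 8.62) for Klrg1 and 2.31 to 5.31 (median 3.74) for Nfil3. With the mouse as a block, 5 of 5 genes were higher in Tregs over all mice and within PBS, WT IL-2, H16R and 3x, against 38.2%, 24.5%, 32%, 36.4% and 36.7% of 12844 tested genes. The log2 difference over all mice was 2.22 ± 0.14 for Il1rl1, 3.04 ± 0.12 for Areg, 1.06 ± 0.05 for Gata3, 2.97 ± 0.14 for Klrg1 and 1.87 ± 0.09 for Nfil3 (adjusted p at most 8.63e-11, edgeR). For Il1rl1 it was 1.47 ± 0.09 within PBS, 2.01 ± 0.08 within WT IL-2, 2.30 ± 0.08 within H16R and 3.01 ± 0.09 within 3x. Summed Treg markers were 280.9 to 1331 CPM in Tcons, there mostly Ctla4 and Ikzf2, against 2245 to 4228 CPM in Tregs. The part of Tregs in the Tcon values was not tested.

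**Figure D5:**
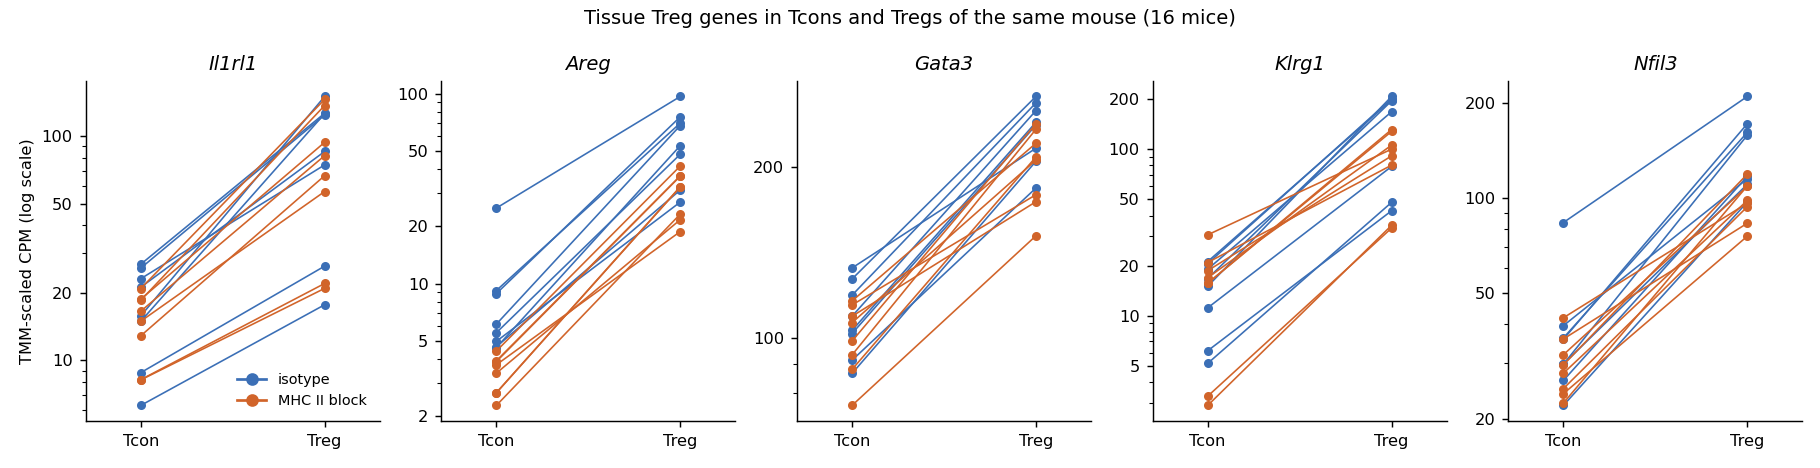
TMM-scaled CPM (log axes) of each gene in Tcons and Tregs, with a line for each of the 16 mice, colored by antibody arm. All lines rise, and the Tcon point highest for Areg (24.97 CPM) and Nfil3 (83.77 CPM) is isotype WT IL-2 replicate 2.

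In Tcons, Il1rl1 and Klrg1 rose with each IL-2 molecule, as they did in Tregs. With the 2 arms together and 4 libraries a treatment, these 2 of 5 genes rose with WT IL-2, H16R and 3x, against 14.8%, 16.2% and 4.71% of 12526 tested genes. Il1rl1 was at 6.30, 8.82, 8.18 and 8.20 CPM with PBS (isotype and then block), at 21.18, 23.11, 14.94 and 12.86 with WT IL-2, at 26.81, 25.77, 16.55 and 18.74 with H16R and at 15.77, 14.93, 20.89 and 18.51 with 3x. All 12 IL-2 libraries were above all 4 PBS libraries. Klrg1 was at 6.15, 5.16, 3.28 and 2.88 CPM with PBS and at 11.14 to 30.61 CPM in the 12 IL-2 libraries, also without overlap. The log2 fold changes were 1.17 ± 0.20, 1.46 ± 0.20 and 1.16 ± 0.19 for Il1rl1 and 1.97 ± 0.25, 2.39 ± 0.25 and 1.86 ± 0.25 for Klrg1 (adjusted p at most 0.00644, edgeR). Summed mast cell and basophil markers also rose with IL-2, at 13.92 to 18.39 CPM in PBS Tcons, 18.76 to 59.68 in isotype IL-2 Tcons and 86.5 to 113.8 in block IL-2 Tcons. Between the arms, these sums were higher under block with IL-2, while Il1rl1 was lower under block with WT IL-2 and H16R and higher with 3x. NK cell markers rose with IL-2 in the block arm, at 58.81 and 66.13 CPM with PBS and 220.1 to 392.2 with IL-2. Among Treg markers, Il2ra was at 17.78 to 19.06 CPM in the 4 PBS Tcon libraries and at 32.1 to 72.74 CPM in the 12 IL-2 libraries. Foxp3 was at 53.33 and 58.99 CPM with PBS and at 91.03 to 182.6 CPM with IL-2 in isotype Tcons, and at 67.95 and 76.74 CPM and 46.77 to 95.26 CPM in block Tcons. The part of these cells in the Tcon values was not tested.

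Areg differed in Tcons by antibody arm. It was lower under block by 1.16 ± 0.29 on the log2 scale (adjusted p = 0.0231), the 1 of 5 genes that fell there, against 15.1% of all genes. Isotype Tcons were at 4.97 and 4.66 CPM with PBS, 8.87 and 24.97 with WT IL-2, 9.20 and 6.12 with H16R and 5.52 and 4.61 with 3x, and block Tcons were at 2.29 to 4.42 CPM. Every block library was below every isotype library. Without isotype WT IL-2 replicate 2, the library at 24.97 CPM with the highest Treg marker sum, it fell by 0.89 on the log2 scale (adjusted p = 0.0127), and the highest adjusted p without 1 library was 0.0521, without MHC II block WT IL-2 replicate 2. Against PBS, Areg differed by 0.97 ± 0.41 with WT IL-2 (adjusted p = 0.112), 0.25 ± 0.40 with H16R and −0.04 ± 0.40 with 3x. The WT IL-2 value was 0.33 (adjusted p = 0.371) without isotype WT IL-2 replicate 2, passed at 1.27 (adjusted p = 0.0521) without MHC II block WT IL-2 replicate 1, and passed in DESeq2 (0.95, adjusted p = 0.0689). Nfil3 differed by 0.36 ± 0.32 with WT IL-2, or by −0.08 without isotype WT IL-2 replicate 2. Gata3 was at 76.18 to 132.9 CPM in Tcons and was called in no Tcon comparison, with log2 differences of −0.03 ± 0.14, 0.21 ± 0.13 and 0.00 ± 0.14 against PBS.

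Across the 32 Treg libraries the 5 genes formed a gradient rather than 1 group. As a description over libraries that share their groups, Pearson's r of log2 CPM was 0.922 between Il1rl1 and Klrg1, 0.914 between Areg and Nfil3, 0.332 between Il1rl1 and Nfil3, and 0.585 between Il1rl1 and Areg. Gata3 had r of 0.849 with Klrg1 and of 0.631 to 0.79 with the others. Of 9506 genes with a mean of at least 5 CPM, those most like Il1rl1 were Frmd5 (0.979), the collagen-binding integrin Itga2 (0.974), Tmprss13 (0.97), Golm1 (0.968) and the inhibitory receptor Cd200r1 (0.967). Those most like Areg were Itm2c (0.93), Slc25a3 (0.924), Ttc39c (0.924), the adenosine receptor Adora2a (0.923) and Gadd45b (0.922), and 3 of these, Adora2a (0.968), Itm2c (0.947) and Gadd45b (0.917), were also among the 5 most like Nfil3, with Cass4 (0.944) and Areg. The IL-9 receptor Il9r led the list for Klrg1 (0.952), followed by Hsd3b7 (0.944), Alox8 (0.941), Rexo5 (0.939) and Sh3bp4 (0.936), and Dapp1 (0.921) led that for Gata3, followed by Alox8 (0.895), St3gal2 (0.894), Zdhhc2 (0.891) and Ssbp3 (0.89).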

How the data were processed

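RNA-seq was performed on polyA-selected RNA with a stranded kit, from 32 Treg and 16 Tcon libraries. The authors deposited expected counts per gene, made with an OSA aligner and an RSEM implementation, and FPKM values, which are normalized to length and depth. Their methods name mouse B38 and GENCODE v19, while gene classes and coordinates here come from GENCODE vM21 (GRCm38), which held 51519 of 53345 gene identifiers (96.6%). Deposited tables of fold changes and p-values from the authors' DESeq2 1.30.1 were not used.

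Expected counts were rounded to whole numbers. Protein-coding genes with over 0.5 CPM in at least 4 of the fitted libraries were kept, and genes with an empty cell were left out (29 in Tregs). Counts were TMM-normalized and tested two-sided with the quasi-likelihood test of edgeR 4.0.16 in R 4.3.3, with Benjamini-Hochberg adjustment over all genes tested and a threshold of 0.1. The 8 Treg groups shared 1 fit (12392 genes). Treg and Tcon of a mouse were fitted with the mouse as a block (12844 genes), and Tcons with treatment and antibody arm as terms (12526 genes). In all, 30 comparisons were made. SEs were taken from the fold change and F, and 95% intervals used 24 residual degrees of freedom.

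Replicate numbers did not pair Treg groups: same-numbered libraries deviated with a mean correlation of 0.006, other pairs with −0.002, and 11 of 32 libraries correlated best with their own number. Treg and Tcon libraries of the same mouse correlated at 0.153 to 0.552. Libraries of a group differed beyond sampling noise (chi-square per gene of at least 3.87). Scripts were tested on simulated counts.

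The 5 genes and the pathway lists were chosen with earlier results of these data known. Each list names up to 2 genes with the largest mean rise and up to 2 with the largest mean fall. Means were taken over the 3 molecules in the isotype arm, among genes called in that direction with any of them. Il33, Il1rap, Egfr and Cdh1 were added. Likeness is the correlation of log2 CPM (prior count 2) over Treg libraries. Alternatives were DESeq2 1.42.0, its size factors, total counts alone, all gene classes, no filter, only the groups compared, a replicate block, thinning, limma 3.58.1 on log2(FPKM + 1) and log2(FPKM + 0.1), and each library left out. Leaving out both Treg libraries with the most B cell marker RNA was added after seeing the data.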

Additional observations from a re-analysis of the deposited data

Results flagged for a closer look

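Results stood out here mostly because an effect differed between groups by its own test in edgeR. The response to WT IL-2 was smaller under MHC II block than with isotype for Areg (−0.995 ± 0.165 on the log2 scale, adjusted p = 0.000222) and Nfil3 (−0.743 ± 0.118, adjusted p = 0.00014). The effect of MHC II block was weaker with H16R than with WT IL-2 for Areg (0.705 ± 0.159) and Nfil3 (0.688 ± 0.117). It was weaker with 3x than with WT IL-2 for Areg (0.816 ± 0.159), Nfil3 (0.781 ± 0.117) and Gata3 (0.298 ± 0.104). These comparisons share the WT IL-2 libraries.

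In Tregs with isotype and 3x, replicate 3 stood apart from the other 3 libraries for Nfil3, at 130.4 CPM against 115.1 to 117.3 CPM. Its gap was 0.856 of the range of the group, above Dixon's critical value for 4 samples. Of 40 groups of 4 examined, this was the 1 that passed, and chance flags about 1 in 20 groups.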

How the results depend on the processing

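Of 3606 alternative values for the 98 called differences, 3562 kept direction and call, 44 lost the call and 0 reversed, and 92 of the 98 never changed. Of 1989 values for the 52 differences not called, 1903 stayed so in the same direction, 23 became calls and 63 reversed around 0. The cause was not tested. The reversals were as follows. In Tcons, Gata3 with 3x (0.00) was −0.0163 with DESeq2, −0.0162 with its size factors and −0.0018 with the replicate block. In Tregs, Nfil3 with WT IL-2 under block (0.00) was −0.0016 with DESeq2, −0.0014 with its size factors, −0.0038 with all gene classes, −0.0153 without the filter, −0.0087 with only the groups compared, −0.0435 with total counts alone, and −0.0516 and −0.0528 in limma with pseudocounts of 1 and 0.1. The arm difference of the Il1rl1 response to 3x (−0.04) was 0.0231 with all gene classes, 0.0332 and 0.0406 in limma and 0.0828 without the libraries MHC II block WT IL-2 replicate 1 and isotype PBS replicate 1. Without these, Areg with 3x against WT IL-2 under block (0.03) was −0.072.

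Leaving out 1 library gave these ranges where a sign turned. In Tcons they were −0.2646 to 0.1304 (Areg, 3x), −0.1137 to 0.0925 (Gata3, 3x), −0.4026 to 0.0388 (Nfil3, 3x), −0.4189 to 0.0272 (Nfil3, H16R), −0.1764 to 0.0676 (Gata3, WT IL-2), −0.0818 to 0.5605 (Nfil3, WT IL-2) and −0.1604 to 0.0382 (Klrg1, block). In Tregs they were −0.0028 to 0.1296 (Nfil3, 3x, isotype), −0.0925 to 0.0715 (Nfil3, WT IL-2, block), −0.0717 to 0.1999 (Areg, 3x against WT IL-2, block), −0.0139 to 0.0854 (Gata3, the same pair, isotype) and −0.176 to 0.072 (Il1rl1, block, PBS). For interactions they were −0.285 to 0.109 and −0.2694 to 0.1293 (Klrg1, block effect, 3x and H16R), −0.1443 to 0.1071 and −0.0148 to 0.1174 (Il1rl1 and Nfil3, response to 3x) and −0.1045 to 0.0276 (Nfil3, response to H16R).

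Counts of the 5 genes called moved for 3x against H16R with isotype, from 2 to 1 in both limma fits and without the filter (1 to 2 with 1 library left out). For H16R against WT IL-2 under block, 4 became 2 without both libraries named above (2 to 4 with 1 left out). With only the groups compared, 4 further differences became calls, Il1rl1 with 3x against H16R with isotype (0.19), Gata3 in that pair under block (0.13), Klrg1 with block in PBS mice (−0.42) and the block effect of 3x against WT IL-2 on Il1rl1 (0.28), and 0 became 1 for the arm difference of the responses to 3x and to H16R (0 to 1 with 1 left out for H16R). With 1 library left out, the count was 2 to 5 for 3x against WT IL-2 under block and 2 to 4 for the arm difference of the response to WT IL-2. Klrg1 with 3x against WT IL-2 in the isotype arm was 0.45 (adjusted p = 0.139) with only the groups compared. The replicate block, whose numbers did not pair the Tregs, changed 1 call among these genes, that of Klrg1 with 3x against WT IL-2 under block (0.33, adjusted p = 0.113).

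Over all genes, calls went from 1751 to 780 for block against isotype in PBS mice and from 1429 to 2258 for 3x against H16R with isotype when only the groups compared were fitted, and from 1238 to 2000 for 3x in Tcons with all gene classes. Scaling to total counts alone changed the split of higher and lower genes, as it was 3885 and 4068 and became 3074 and 4921 for H16R with isotype, 2717 and 1699 became 2065 and 2630 for WT IL-2 under block, 4905 and 4839 became 3804 and 6123 for Tregs against Tcons, and 1557 and 1351 became 1814 and 1019 for the block effect of H16R against WT IL-2. For block against isotype, 744 and 1007 became 1001 and 779 with PBS, 1913 and 1886 became 2422 and 1261 with H16R, and 3368 and 3337 became 4023 and 2642 with 3x. For H16R against WT IL-2 with isotype 1099 and 1210 became 685 and 1601, and for 3x against H16R under block 1572 and 1555 became 1884 and 1195. Groups of 4 libraries limit small differences, and Tcon groups of 2 limit them more.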

Other observations

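Other genes of the tissue Treg program were counted as well. Of 12 further factors and markers, 11 rose with WT IL-2 in the isotype arm, 9 with H16R and 7 with 3x. Those that fell were 0, 0 and 1. The median log2 fold changes were 0.94, 0.84 and 0.69, against −0.01 for all genes. Of all genes, 26%, 31.4% and 31.3% rose and 26.2%, 32.8% and 32.3% fell. Under MHC II block 9, 11 and 11 rose and 0 fell, against 21.9%, 32.7% and 34.7% of all genes that rose and 13.7%, 33.8% and 38.3% that fell. Il10, the gene of a suppressive cytokine, was at 36.67 ± 5.38 CPM (SD, n = 4) with isotype and PBS, 184.4 ± 29.8 with H16R, 160.6 ± 38.8 with WT IL-2 and 122.8 ± 18.5 with 3x. Under block with PBS, WT IL-2, H16R and 3x it was at 33.85 ± 3.95, 82.77 ± 11.2, 254.8 ± 26.7 and 212.2 ± 22.8 CPM. Block thus lowered Il10 with WT IL-2 (−0.94 ± 0.14, adjusted p = 1.89e-05, edgeR) and raised it with H16R (0.46 ± 0.14) and 3x (0.77 ± 0.14). Tigit, the gene of an inhibitory receptor, was lower under block with WT IL-2 (−0.94 ± 0.10) and higher with 3x (0.54 ± 0.10). Over the list, 9 of 12 genes fell under block with WT IL-2 and 8 rose with 3x, against 15.3% and 27.2% of all genes. Areg, Klrg1 and Nfil3 fell under block with 3x. Id2, an inhibitor of E proteins, rose with WT IL-2 (0.20 ± 0.07) and fell with 3x (−0.16 ± 0.07) in the isotype arm and rose with each molecule under block.

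Clock genes and factors that share D-box sites with NFIL3 made up the last list. Of 8 tested, 5, 5 and 4 fell and 0, 1 and 1 rose with WT IL-2, H16R and 3x in the isotype arm, and 3, 6 and 6 fell and 2, 1 and 0 rose under block. Of all genes, 26.2%, 32.8% and 32.3% fell and 26%, 31.4% and 31.3% rose with isotype, and 13.7%, 33.8% and 38.3% fell and 21.9%, 32.7% and 34.7% rose under block. Nr1d1, the gene of the repressor REV-ERBα, was at 28.77 ± 3.93 CPM with isotype and PBS and at 19.68 ± 4, 12.42 ± 1.75 and 11.95 ± 1.9 CPM with the molecules. Per2, a core clock repressor, fell with each molecule in both arms, by 0.41 to 0.88 on the log2 scale. Tef, an activator at D-box sites, rose with H16R (0.27 ± 0.07) and 3x (0.26 ± 0.07) in the isotype arm.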
